A study of Homo sapiens with 6 samples.

Results

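The secreted factors and receptors that govern the growth of blood vessels were followed in NCI-H1299 cells treated with norepinephrine (NE). The set holds 10 genes: the ligands VEGFA, VEGFB, VEGFC and PGF of the vascular endothelial growth factor (VEGF) family, the VEGF receptors KDR and FLT1, the angiopoietins ANGPT1 and ANGPT2, the angiopoietin-like gene ANGPTL4, and thrombospondin 1 (THBS1). They were taken by gene name from the 26025 genes of the deposited table, and all 10 were listed. NCI-H1299 is a human cell line derived from a metastasis of a non-small cell lung carcinoma. RNA was sequenced from 3 Ctrl libraries, given vehicle, and 3 libraries of cells given NE at 10 µM, both for 48 h in medium with low serum after a period in DMEM. The labels name the vehicle as DMSO in the titles and as PBS in the treatment protocol. They do not say whether the 3 libraries of a group came from separate cultures, so p-values measure the spread between these libraries, which may be technical.

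VEGF ligands are dimers that bind receptor tyrosine kinases on endothelial cells. VEGFA acts through KDR and drives vessel sprouting and leakage, while VEGFB and PGF bind FLT1, and VEGFC acts mainly on the lymphatic receptor FLT4. Angiopoietins bind the receptor TEK: ANGPT1 activates it and steadies vessels, and ANGPT2 often opposes this. ANGPTL4 is a secreted inhibitor of lipoprotein lipase, known to be induced by fasting, by low oxygen and by PPAR receptors. THBS1 is a matrix protein that inhibits angiogenesis through its receptors CD36 and CD47. Tumor cells are a main source of VEGFA in lung tumors. NE is a catecholamine that acts on adrenergic receptors, of which the beta type raises cAMP and activates the transcription factor CREB.

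Promoter sequences of 300 bases were taken from RefSeq (GRCh38.p14), from 250 bases before to 50 bases after the start of the transcript, and 7 of the 10 genes had an entry. Shown are those of ANGPTL4, VEGFB, PGF and THBS1, the genes with an entry whose RNA differed between the groups, and of FLT1, the one entry with a complete cAMP response element. Each is written 5′ to 3′ on the strand of its gene. Capitals mark TGACGTCA (the palindromic cAMP response element), its shorter core TGACG, the cores ACGTG and GCGTG that the oxygen-sensing HIF factors bind, and the TATA sequence TATAAA, each on either strand. PGF has a pair of start sites in the table, and the first is shown.
ANGPTL4, chr19:8363905-8364204, plus strand: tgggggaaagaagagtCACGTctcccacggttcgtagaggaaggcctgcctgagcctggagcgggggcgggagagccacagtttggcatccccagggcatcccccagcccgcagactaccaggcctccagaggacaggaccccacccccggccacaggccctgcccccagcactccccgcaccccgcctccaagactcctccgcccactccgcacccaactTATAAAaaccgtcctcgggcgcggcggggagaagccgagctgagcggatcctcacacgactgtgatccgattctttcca
VEGFB, chr11:64234334-64234633, plus strand: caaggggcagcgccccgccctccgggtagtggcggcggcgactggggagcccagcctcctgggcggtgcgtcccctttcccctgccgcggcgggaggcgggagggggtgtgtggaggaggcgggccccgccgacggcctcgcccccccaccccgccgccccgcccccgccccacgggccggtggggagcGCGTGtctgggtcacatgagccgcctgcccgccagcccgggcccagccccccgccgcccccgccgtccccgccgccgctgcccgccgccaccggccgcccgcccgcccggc
PGF, chr14:74955715-74956014, minus strand: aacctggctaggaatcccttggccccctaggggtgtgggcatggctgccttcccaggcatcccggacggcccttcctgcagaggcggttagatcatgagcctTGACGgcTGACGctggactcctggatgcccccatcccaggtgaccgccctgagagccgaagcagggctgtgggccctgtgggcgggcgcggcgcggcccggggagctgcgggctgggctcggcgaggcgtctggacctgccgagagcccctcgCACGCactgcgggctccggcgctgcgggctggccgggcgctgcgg
THBS1, chr15:39580829-39581128, plus strand: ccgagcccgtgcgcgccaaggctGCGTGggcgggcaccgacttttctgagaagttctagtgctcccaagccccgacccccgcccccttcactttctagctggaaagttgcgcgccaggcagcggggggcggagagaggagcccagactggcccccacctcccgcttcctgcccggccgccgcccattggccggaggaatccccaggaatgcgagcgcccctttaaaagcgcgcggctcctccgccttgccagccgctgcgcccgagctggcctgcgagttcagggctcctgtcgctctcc
FLT1, chr13:28495079-28495378, minus strand: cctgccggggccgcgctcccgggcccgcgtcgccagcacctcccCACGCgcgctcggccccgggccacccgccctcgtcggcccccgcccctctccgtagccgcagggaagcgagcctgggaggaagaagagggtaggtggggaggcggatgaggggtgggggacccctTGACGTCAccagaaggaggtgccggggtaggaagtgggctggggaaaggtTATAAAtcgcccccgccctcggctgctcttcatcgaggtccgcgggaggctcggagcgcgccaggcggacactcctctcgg
Counted from the first base of the transcript at 0, ANGPTL4 had ACGTG at -234 on the reverse strand and TATAAA at -29. GCGTG was found in VEGFB at -61, in THBS1 at -227, and on the reverse strand in PGF at 5 and in FLT1 at -206. PGF had TGACG at -148 and -141. FLT1 had TGACGTCA at -81, which contains the core TGACG on both strands, and TATAAA at -31. Over the 35116 promoters of the table, 1.85% held TGACGTCA, 24.6% TGACG, 21.4% ACGTG, 36.5% GCGTG and 11.5% TATAAA. The GC box GGGCGG, found in 45.0% of all promoters, occurred 9 times in the VEGFB window, 4 times in that of THBS1 and 2 times in that of ANGPTL4. These matches describe the letters of the windows only.

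The deposited values are read counts per gene divided by 1 size factor per library, and they are given here as normalized counts. Between 16852751 and 17979206 reads fell on genes in each library, so that depth differed little. Ctrl replicate 3 stood apart, with 7305 genes at 0 reads against 3954 to 4833 in the other 5 libraries. The groups were compared with limma on log2(normalized count + 1) over the 15013 genes whose mean reached 10 normalized counts. A gene passed the test when its Benjamini-Hochberg adjusted p was under 0.05, and was called when its log2 fold change was also at least 1 in size. Log2 fold changes are given with their standard error (SE). Because the change of all genes followed the GC content of their exons, each result was also computed after a smooth trend on GC content had been removed from every library, named the GC correction below. The scale of log2(normalized count + 1) understates the change of genes with low counts. In bulk RNA, fewer cells that express a gene and less RNA per cell cannot be told apart.

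Of the 10 genes, 8 reached the minimum mean, and ANGPT2 and FLT1 did not. VEGFA, ANGPT1 and THBS1 rose with NE, and ANGPTL4, VEGFB and PGF fell. VEGFA was the 1 gene called higher and ANGPTL4 the 1 called lower. With the GC correction VEGFA, THBS1 and ANGPTL4 still passed, but ANGPTL4 no longer met the fold criterion, and ANGPT1, VEGFB and PGF did not pass. Over all genes tested 7.47% were called higher and 6.55% lower, and 24.6% passed the test upward and 25.5% downward. The median log2 fold change of the 8 genes was -0.01, against 0.01 over all genes tested. For 3 genes every NE library lay above every Ctrl library, and for 3 every NE library lay below, where 29.7% and 28.9% of all tested genes did so.

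**Figure D1:**
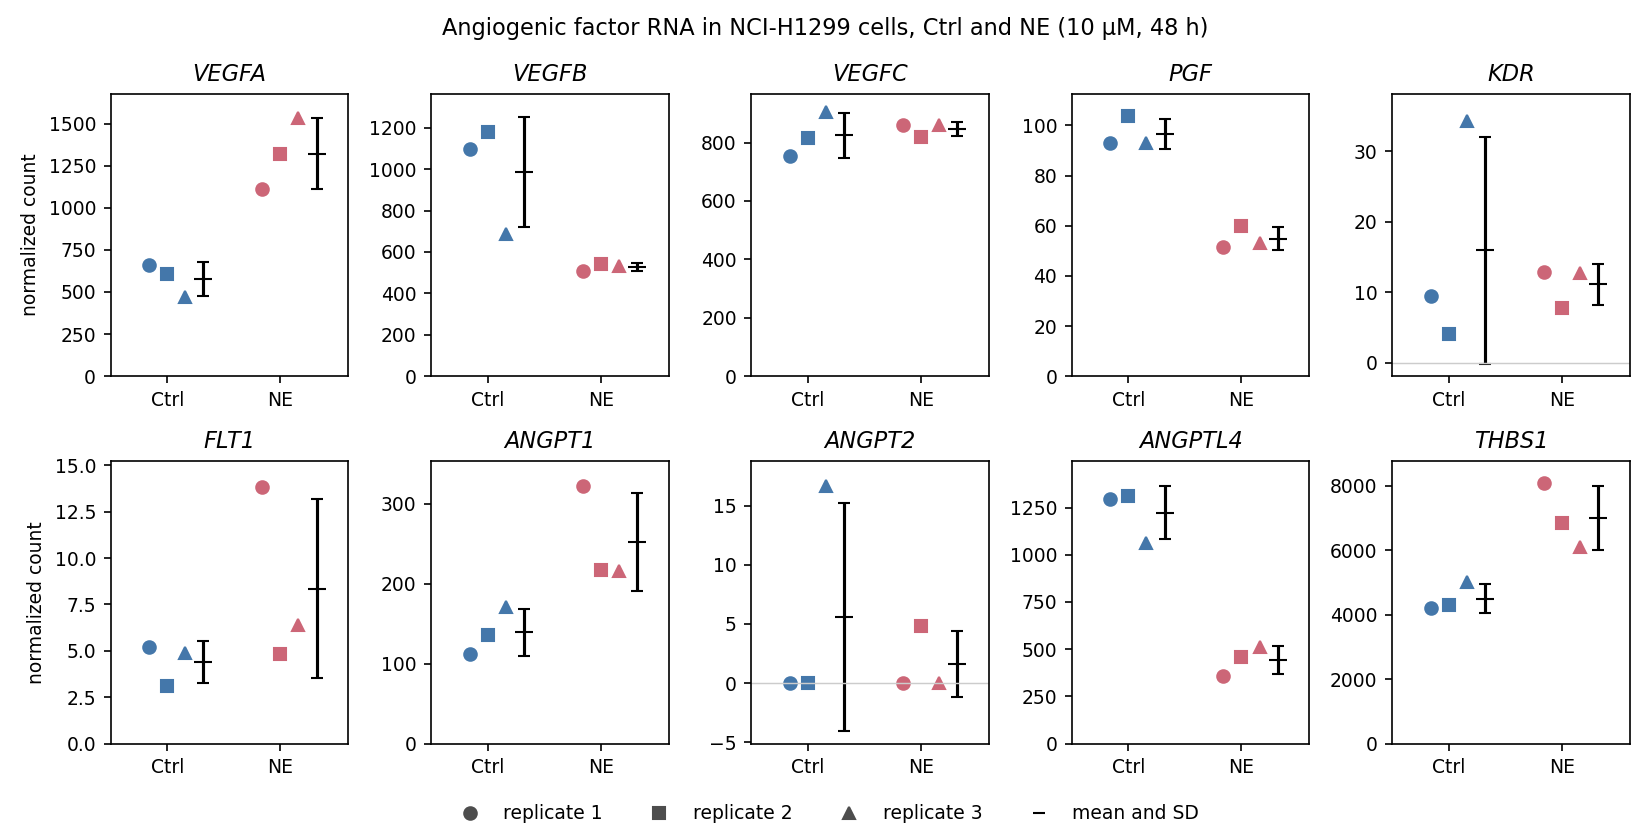
Normalized counts (vertical axes, linear) of the 10 genes in the 3 Ctrl and 3 NE libraries, with the replicate shown by symbol and the group mean and SD as black bars. VEGFA, ANGPT1 and THBS1 are higher in every NE library, VEGFB, PGF and ANGPTL4 are lower in every NE library, and the groups overlap for VEGFC, KDR, FLT1 and ANGPT2.

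VEGFA more than doubled in NE-treated cells. The gene (ENSG00000112715) lies on the plus strand of chromosome 6 of hg38, at chr6:43770184-43786487. Its normalized counts were 660.8, 607.7 and 467.4 in the Ctrl libraries and 1111, 1321 and 1531 in the NE libraries. The lowest NE library was thus well above the highest Ctrl library. The means were 578.6 ± 99.9 (SD, n = 3) and 1321 ± 210.0 (SD, n = 3). The log2 fold change was 1.19 ± 0.166 (SE; 95% interval 0.82 to 1.57; limma, adjusted p = 0.000559), a fold of 2.28. The spread between Ctrl libraries, with a coefficient of variation of 17.3%, exceeded the 4.21% that counting error alone gives. Ctrl replicate 3 was the lowest library, and without it the log2 fold change was 1.05. VEGFA passed the test and the fold criterion in each of 23 alternative fits, from 1.05 to 1.75.

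The other VEGF ligands went other ways. VEGFB (ENSG00000173511, chr11:64234584-64239264, plus strand) binds FLT1 and is linked to the survival of vessels and heart muscle. It had 1097, 1178 and 685.0 normalized counts in Ctrl and 508.9, 542.4 and 530.9 in NE libraries. Ctrl replicate 3 lay closer to the NE libraries than to the other Ctrl libraries, while the NE libraries agreed within counting error. The means were 986.8 ± 264.5 and 527.4 ± 17.0 (SD, n = 3 each), a log2 difference of -0.86 ± 0.192 (SE; limma, adjusted p = 0.00514), and of -0.25 with the GC correction (adjusted p = 0.142). Without Ctrl replicate 3 it was -1.11, and VEGFB was then called.

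PGF (placental growth factor, ENSG00000119630, chr14:74941834-74955626, minus strand) was a lowly expressed ligand. Its normalized counts were 93.2, 103.7 and 93.1 in Ctrl and 51.4, 60.05 and 53.0 in NE libraries. Both groups were tight and apart on this scale. The log2 fold change was -0.81 ± 0.195 (SE; limma, adjusted p = 0.00769), below the fold criterion. With the GC correction it was -0.27 (adjusted p = 0.319), and the groups overlapped.

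VEGFC (ENSG00000150630, chr4:176683538-176792922, minus strand), the ligand of lymphatic vessels, had 752.9, 816.1 and 905.5 normalized counts in Ctrl and 859.7, 820.3 and 861.7 in NE libraries. The groups overlapped, with all NE libraries inside the Ctrl range. The log2 fold change was 0.04 (95% interval -0.21 to 0.30; limma, adjusted p = 0.777). A change of VEGFC as large as that of VEGFA lay outside this interval.

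To compare levels between genes, reads were divided by the length of each gene's canonical transcript and by the total of reads on genes of the library (FPKM). This total is not the size factor. Normalized counts summed to 1.76e+07 to 1.82e+07 in Ctrl and to 1.57e+07 to 1.71e+07 in NE libraries. Changes with NE thus come out higher in FPKM than in normalized counts, for single genes and for sums. In Ctrl cells VEGFB was the leading VEGF ligand at 30.3 ± 7.64 FPKM, followed by VEGFC at 20.3 ± 2.25, VEGFA at 8.88 ± 1.39 and PGF at 3.08 ± 0.168 (SD, n = 3 each). The libraries of VEGFB and VEGFC overlapped in level, and the others were apart. In NE-treated cells VEGFC stood at 22.9 ± 1.16, VEGFA at 22.5 ± 4.49 and VEGFB at 17.9 ± 1.21, with overlapping libraries between VEGFC and VEGFA and between VEGFA and VEGFB, and PGF at 1.93 ± 0.195. The summed level of the 4 ligands was 62.5 ± 6.998 FPKM in Ctrl and 65.1 ± 6.72 in NE-treated cells, a difference within the spread of the libraries. Within this sum the share of VEGFA was 15.5%, 13.6% and 13.4% in Ctrl and 30.8%, 34.4% and 37.5% in NE libraries. The share of VEGFB was 51.6%, 52.6% and 39.4% in Ctrl and 28.2%, 28.2% and 26.0% in NE libraries. On this length scale VEGFA took a larger and VEGFB a smaller share in every NE library. The order and size of these shares depend on the length used. VEGFA has 14431 bases of merged exons over all its transcripts against 3609 in the canonical one, and with merged exons its share was 4.58% in Ctrl and 13.2% in NE-treated cells. On that scale VEGFC went from 36.9% to 46.8% and VEGFB from 56.6% to 38.7%, so that VEGFA stayed below both, and the sum was 48.4 ± 5.68 and 42.3 ± 3.05 FPKM. The FPKM values carry no GC correction, with which VEGFB did not pass the test.

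**Figure D2:**
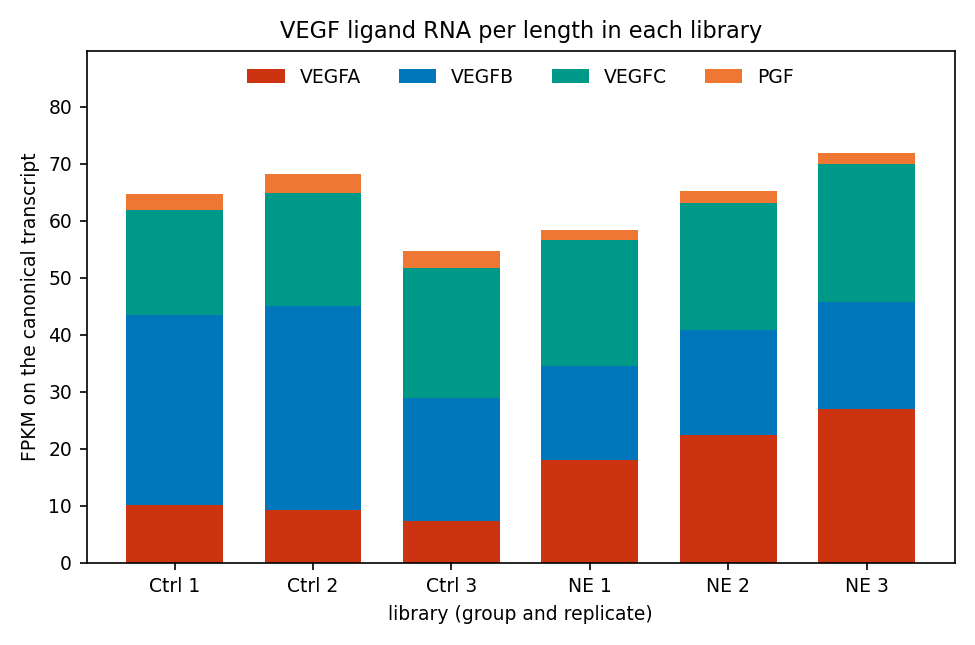
FPKM on the canonical transcript (vertical axis) of VEGFA, VEGFB, VEGFC and PGF, stacked for each of the 6 libraries (horizontal axis). The total height is 54.7 to 68.1 in Ctrl libraries and 58.4 to 71.8 in NE libraries, while the VEGFA segment is larger and the VEGFB segment smaller in every NE library.

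The log2 ratio of VEGFA to VEGFB, from normalized counts, was -0.73, -0.95 and -0.55 in Ctrl and 1.12, 1.28 and 1.53 in NE libraries. It rose by 2.06 on average. Since VEGFA lay higher and VEGFB lower in every NE library, the groups were bound to be apart, and the ratio is a description. The ratio carries no GC correction, with which VEGFB did not pass the test.

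RNA of the VEGF receptors KDR and FLT1 was close to absent in these cells. KDR (ENSG00000128052), the main signaling receptor of VEGFA, had 9, 4 and 35 reads in Ctrl and 13, 8 and 14 reads in NE libraries. It reached the minimum mean through Ctrl replicate 3, and its log2 fold change of -0.06 had a 95% interval from -1.64 to 1.52. FLT1 (ENSG00000102755), the receptor of PGF and VEGFB, had 5, 3 and 5 reads in Ctrl and 14, 5 and 7 in NE libraries. The sums of 13 and 26 reads have exact Poisson 95% intervals of 6.92 to 22.2 and 17.0 to 38.1, which overlap and cover counting error only. No difference in either receptor was detectable at this depth, and neither exceeded 0.334 FPKM in any library.

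Among the genes of the VEGF system outside the 10, the co-receptors were expressed. NRP1 was at 1422 ± 153.2 normalized counts in Ctrl and at 1688 ± 236.3 with NE, and did not pass the test (log2 0.24, adjusted p = 0.153 from limma). NRP2, a co-receptor of VEGFC and of semaphorins, rose from 335.6 ± 37.9 to 572.4 ± 57.2 (log2 0.77, adjusted p = 0.00194 from limma). The lymphatic receptor FLT4 had 111.4 ± 6.27 and 76.1 ± 25.1 normalized counts (log2 -0.59, adjusted p = 0.076 from limma), and VEGFD was under the minimum mean. NRP2 was therefore the 1 of 3 tested genes of this list that passed.

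ANGPT1 was higher in NE-treated cells before but not after the GC correction, and ANGPT2 had few reads. ANGPT1 (ENSG00000154188), the activating ligand of TEK, had 112.1, 135.8 and 170.5 normalized counts in Ctrl and 323.1, 217.9 and 215.7 in NE libraries. All NE libraries exceeded all Ctrl libraries, though NE replicate 1 was far higher than the other two NE libraries. The means were 139.5 ± 29.4 and 252.2 ± 61.4 (SD, n = 3 each), a log2 difference of 0.84 ± 0.218 (SE; limma, adjusted p = 0.0106). With the GC correction it was 0.13 (adjusted p = 0.568), and -0.03 when NE replicate 1 was left out as well. ANGPT2 (ENSG00000091879) had 0, 0 and 17 reads in Ctrl and 0, 5 and 0 reads in NE libraries. The reads thus came from a single library in each group, and no direction could be read. Of 10 further angiopoietin and TIE genes, 7 were listed and TIE1 alone was tested (log2 -0.92, adjusted p = 0.123 from limma). The receptor TEK itself averaged 0.346 in Ctrl and 0.305 in NE libraries, in normalized counts.

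ANGPTL4 had the largest fall among the 8 tested genes. It (ENSG00000167772, chr19:8363289-8374370, plus strand) had 1297.5, 1309 and 1064 normalized counts in Ctrl and 360.7, 456.2 and 510.8 in NE libraries. The highest NE library was below the lowest Ctrl library by more than the spread of either group. The means were 1223 ± 138.0 and 442.6 ± 76.0 (SD, n = 3 each). The log2 fold change was -1.47 ± 0.155 (SE; 95% interval -1.82 to -1.12; limma, adjusted p = 0.000177), a fold of 0.36. In FPKM on canonical transcripts it stood at 36.2 ± 3.44 in Ctrl cells, where its libraries overlapped those of THBS1 and VEGFB, and at 14.5 ± 3.07 in NE-treated cells, where they overlapped those of VEGFB. With merged exons ANGPTL4, THBS1 and VEGFB were at 27.4, 27.3 and 27.7 FPKM in Ctrl. The log2 ratio of VEGFA to ANGPTL4 was -0.97, -1.11 and -1.19 in Ctrl and 1.62, 1.53 and 1.58 in NE libraries. Its SD within a group was at most 0.11, and it rose by 2.67. VEGFA lay higher and ANGPTL4 lower in every NE library, so this ratio was bound to separate the groups, and it is a description.

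PPAR receptors and lipid genes that share this control with ANGPTL4 were looked at next. Of 11 such genes, 8 were tested, of which 2 rose, 3 fell and 0 were called. Over all genes tested 24.6% passed upward and 25.5% downward. The genes that rose were receptors, and no tested lipid gene passed upward. The receptor genes PPARA and PPARG had log2 values 0.91 and 0.88 higher (limma, adjusted p = 0.000458 and 0.0277), while their partner RXRA was at -0.64 (adjusted p = 0.00483 from limma). PLIN2, which coats lipid droplets, was at -0.40 and ACADVL, an enzyme of fatty acid oxidation and the most abundant of the list, at -0.60 (adjusted p = 0.0131 and 0.00661 from limma). CPT1A, the entry enzyme of that pathway, was at 0.00 (adjusted p = 0.987). After the GC correction 2 genes rose, again receptors (PPARA at 0.92 and PPARD at 0.54), and 1 fell, PLIN2 at -0.60. PPARG, RXRA and ACADVL no longer passed the test (adjusted p = 0.437, 0.958 and 0.744 from limma).

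VEGFA and ANGPTL4 are both known targets of the oxygen-sensing HIF pathway, and went opposite ways here. Of 22 genes of this pathway and its targets, 20 were tested, of which 7 rose and 3 fell, with a median of 0.07, beside 24.6% and 25.5% of all tested genes. EPAS1, which encodes HIF-2alpha, was called, from 47.9 ± 1.62 to 301.5 ± 39.8 normalized counts (log2 2.62, adjusted p = 2.33e-05 from limma). EGLN1, the prolyl hydroxylase that marks HIF for degradation, was called as well (log2 1.39, adjusted p = 0.00015). HIF1A itself rose by 0.60 (adjusted p = 0.0184 from limma), and the GC correction brought it to 0.00 (adjusted p = 0.979). Targets of the pathway moved both ways. BNIP3L rose by 0.91, MXI1 by 0.83, P4HA1 by 0.82 and KDM3A by 0.82 in log2 units. All 4 also passed after the GC correction, at 0.32, 0.82, 0.29 and 0.46. Among the other targets PGK1, the most abundant gene of the list, fell by 0.72, PFKFB4 by 0.91 and HILPDA by 0.79 in log2 units (limma, adjusted p = 0.000488, 0.00523 and 0.00842). The glucose transporter gene SLC2A1 was at -0.07 and BNIP3 at -0.05, and neither passed the test. With the GC correction SLC2A1 passed upward at 0.30 and AK4 downward at -0.39 (adjusted p = 0.0164 and 0.0322 from limma). CA9 was not listed. After the GC correction 7 genes rose and 2 fell, EPAS1 was at 2.97 and EGLN1 at 1.199, and PFKFB4 and HILPDA did not pass (adjusted p = 0.0768 and 0.0591).

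THBS1 was the most abundant of the 10 genes in counts, and rose. It (ENSG00000137801, chr15:39581079-39599466, plus strand) had 4201, 4295 and 5015 normalized counts in Ctrl and 8077, 6862 and 6093 in NE libraries. The groups were apart, with Ctrl replicate 3 nearest to the NE libraries. The log2 fold change was 0.63 ± 0.127 (SE; 95% interval 0.35 to 0.92; limma, adjusted p = 0.0032), a fold of 1.55. It passed the test in each of 23 alternatives, from 0.37 to 0.88, and was called in 0 of them. In NE-treated cells THBS1 led the 10 genes at 54.8 ± 5.47 FPKM, above every library of the next gene, VEGFC, and it did so with merged exons too (46.6 ± 4.65).

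The balance of VEGFA against THBS1, an inducer against an inhibitor of vessels, was compared within each library. Its log2 ratio was -2.67, -2.82 and -3.42 in Ctrl and -2.86, -2.38 and -1.99 in NE libraries. The groups overlapped, because NE replicate 1 had the lowest VEGFA and the highest THBS1 of its group. The difference was 0.56 (two-sided exact permutation test, p = 0.3, where 0.1 is the lowest possible with 3 against 3 libraries). It was 0.33 without Ctrl replicate 3 and 1.18 with the GC correction, where the groups were apart (exact permutation p = 0.1).

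Other thrombospondins, THBS1 receptors and inhibitors of angiogenesis moved in both directions before the GC correction. Of 17 listed genes 12 were tested, of which 3 rose and 2 fell, near the shares over all genes. The class 3 semaphorins SEMA3A and SEMA3F, ligands of the neuropilins, were called higher. SEMA3A rose from 160.1 ± 34.8 to 551.9 ± 75.7 (log2 1.79) and SEMA3F from 66.4 ± 17.9 to 147.3 ± 28.5 (log2 1.16) (limma, adjusted p = 0.000155 and 0.00417). Without Ctrl replicate 3 the value of SEMA3F was 0.96, under the fold criterion. COL18A1, the source of endostatin, was at -0.62 and THBS3 at -0.49 (adjusted p = 0.0108 and 0.0213 from limma). CD47, the THBS1 receptor and the most abundant gene of the list, did not pass (log2 0.36, adjusted p = 0.104 from limma), and CD36 averaged 2.08 and 1.64 normalized counts. After the GC correction 4 genes of the list rose and 0 fell, with COL18A1 at 0.06 and THBS3 at 0.01 (adjusted p = 0.676 and 0.959).

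Of 10 genes known to respond to TGF-beta or YAP along with THBS1, all tested, 6 fell, LTBP1 rose (log2 0.65) and 3 did not pass, where 25.5% of all tested genes fell and 24.6% rose. ANKRD1, a cardiac and muscle ankyrin repeat gene, was the 1 called, from 102.6 ± 12.0 to 28.0 ± 11.7 normalized counts (log2 -1.90, adjusted p = 0.0011 from limma). TGFB1, the ligand itself and the most abundant of them, went from 13113 ± 1866 to 7445 ± 263.6 (log2 -0.81, adjusted p = 0.000744 from limma), and was at -0.17 with the GC correction (adjusted p = 0.142). CCN1 and CCN2, matrix proteins that also promote vessel growth, fell by 0.64 and 0.82. After the GC correction 3 fell and 2 rose, with a median of -0.02 and ANKRD1 at -2.32.

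Among 27 other angiogenic factors, most of them secreted but with membrane-bound ligands and the receptor EPHB4 among them, and with CCN1 and CCN2 counted here too, 22 were tested. Of these 5 rose and 9 fell, against 24.6% and 25.5% of all tested genes, and 5 were called higher and 5 lower, against 7.47% and 6.55%. CXCL8 (interleukin 8) went from 12.4 ± 6.22 to 135.8 ± 5.78 normalized counts (log2 3.44, adjusted p = 0.000129 from limma). FGF2 and the Notch ligand JAG1 each had a log2 fold change of 1.58, PDGFD of 1.35 and PTN of 1.14. Called lower were PDGFB (log2 -2.07, adjusted p = 7.05e-05 from limma), APLN (-1.40), FGF1 (-1.30), LGALS1 (-1.14) and EGFL7 (-1.02). LGALS1, the most abundant of the list, had 20475 ± 8941 normalized counts in the Ctrl libraries, the widest spread of these genes in counts, and 8631 ± 1401 in NE-treated cells. After the GC correction 6 genes rose and 6 fell, and APLN and LGALS1 did not pass (adjusted p = 0.104 and 0.115). EGFL7 was then at -0.34, FGF2 at 0.94, PDGFD at 0.93 and PTN at 0.77, all past the test but under the fold criterion. CXCL8, JAG1, PDGFB and FGF1 still met it. Factors of 1 family thus went apart, with FGF2 higher and FGF1 lower, and PDGFD higher and PDGFB lower.

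The changes of the 10 genes were set against the GC content of their exons. Across the 12581 tested protein-coding genes the Spearman correlation was -0.69, as a description, since genes are no independent replicates. ANGPT1, at 35.2% GC, rose where GC-poor genes were mostly higher, and PGF, VEGFB and ANGPTL4, at 57.7%, 61.1% and 60.8%, fell where GC-rich genes were mostly lower. VEGFA, at 55.6%, rose against the trend. GC content was taken over merged exons, which for VEGFA hold 14431 bases against 3609 in the canonical transcript. It was not computed on canonical transcripts, and the GC correction rests on it. After the GC correction VEGFA had a log2 fold change of 1.65 and THBS1 of 0.48 (adjusted p = 1.76e-05 and 0.0108 from limma). ANGPTL4 still passed the test at -0.86 (adjusted p = 0.000751 from limma) but not the fold criterion.

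The other 3 genes no longer passed the test on this scale. VEGFB was at -0.25, PGF at -0.27 and ANGPT1 at 0.13, with adjusted p of 0.142, 0.319 and 0.568 from limma. Without Ctrl replicate 3 the corrected value of VEGFB was -0.37 (adjusted p = 0.00655 from limma). VEGFC reached 0.35 after the correction (adjusted p = 0.0497 from limma) and 0.47 without Ctrl replicate 3, and passed in these 2 of its 23 alternatives. VEGFA higher, THBS1 higher and ANGPTL4 lower were thus the 3 changes that passed with and without the correction. The part of GC content in these values was not tested apart from this correction, which can also remove changes made by NE.

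**Figure D3:**
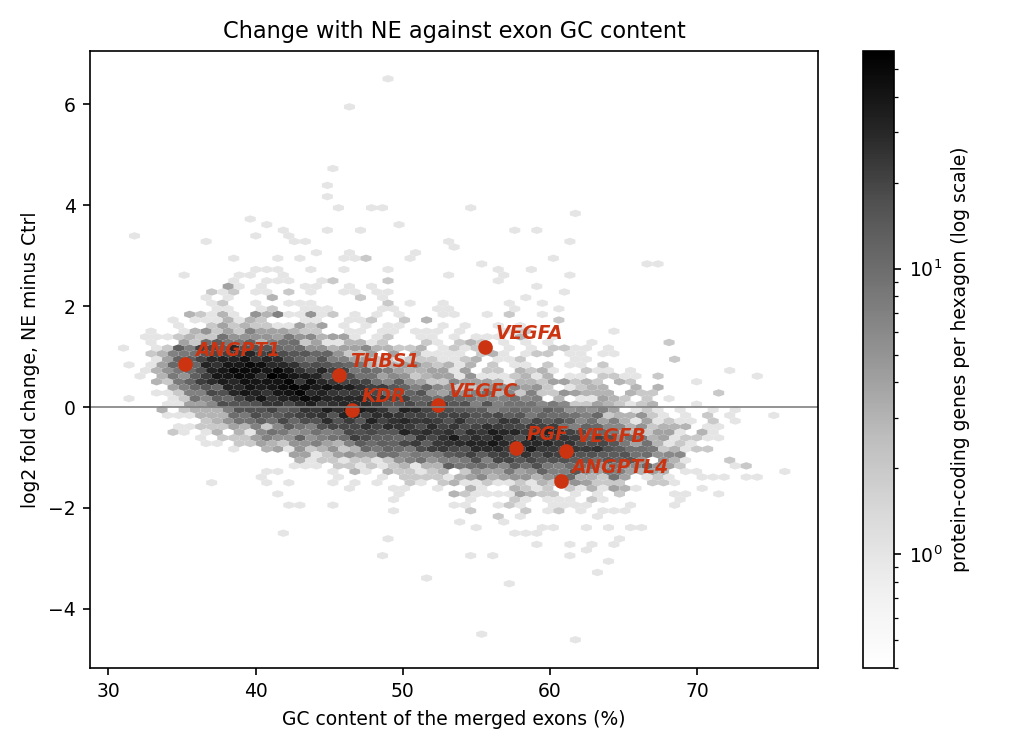
Log2 fold change, NE minus Ctrl (vertical axis), against the GC content of the merged exons in percent (horizontal axis) for the 12581 tested protein-coding genes, as hexagons shaded by number, with the 8 tested angiogenic genes in red. The cloud falls from left to right, with VEGFA above its dense part at 55.6% GC and 1.19, and ANGPTL4 near its lower edge at 60.8% and -1.47.

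**Figure D4:**
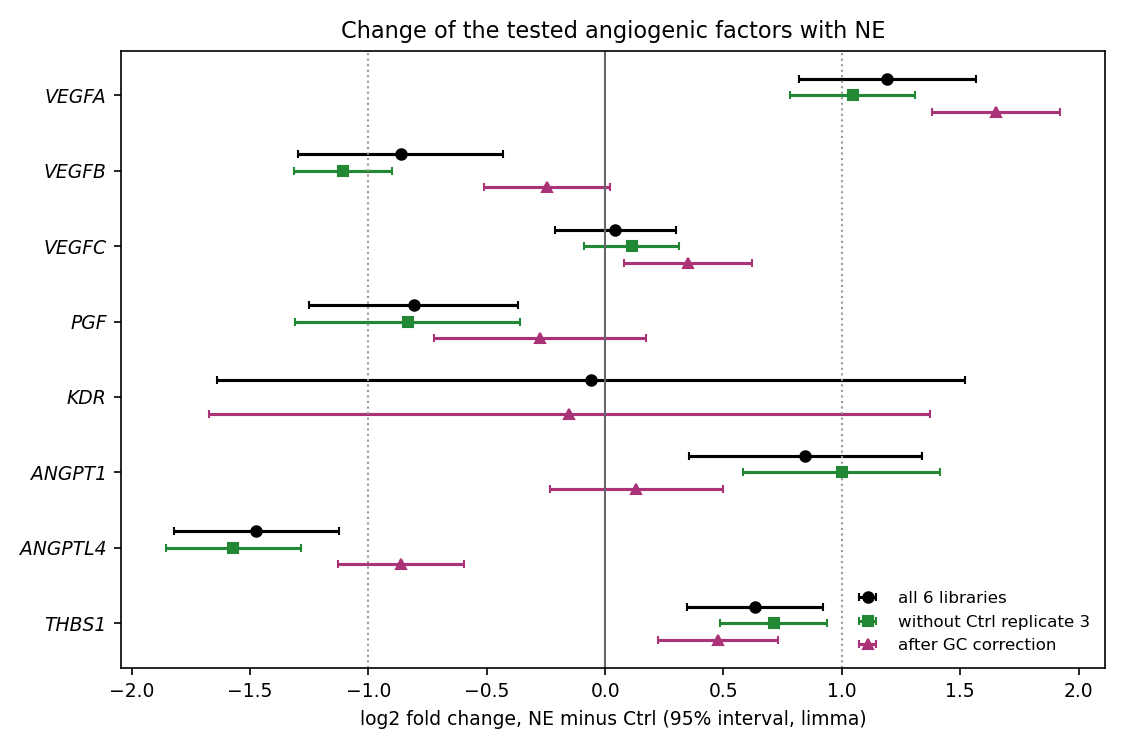
Log2 fold change with its 95% interval from limma (horizontal axis) for the 8 tested genes, with all 6 libraries, without Ctrl replicate 3 and after the GC correction. VEGFA, THBS1 and ANGPTL4 keep intervals away from 0 in all 3, while those of VEGFB, PGF and ANGPT1 include 0 after the correction. KDR was not tested without Ctrl replicate 3.

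The profiles over the 6 libraries nearest to VEGFA among protein-coding genes were those of ID3, TSPYL2 and TGIF1, at distances of 0.178, 0.205 and 0.209 on the log2 scale after centring each gene on its Ctrl mean. Their log2 fold changes were 1.24, 1.21 and 1.18. Nearest to ANGPTL4 were RILP, SLC39A4 and DUSP23, at 0.089, 0.174 and 0.192, with log2 fold changes of -1.46, -1.44 and -1.49. Genes picked by this distance were bound to have similar fold changes, so these values are a description.

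Markers of other cell types were checked, since angiogenic factors also come from vessels and stroma. Of 13 endothelial markers 11 were listed and 6 tested, and ESAM alone passed (log2 -0.99, adjusted p = 0.00727 from limma, and 0.0992 after the GC correction). Their summed normalized counts were 199.0 to 247.8 in Ctrl libraries and 141.4 to 161.7 in NE libraries. Most came from ESAM (means of 81.9 in Ctrl and 40.5 in NE), SOX18 (58.1 and 42.9), PECAM1 (26.7 and 26.5) and TIE1 (26.2 and 14.8). CDH5, CLDN5, TEK, PLVAP and LYVE1 had means under 4. Of 6 immune and blood markers 2 were listed, with sums of at most 4.15. The 6 fibroblast and smooth muscle markers summed to 57.8 to 108.9 in Ctrl and 70.4 to 83.0 in NE libraries, with COL1A1 called lower (log2 -1.26, and -0.68 after the GC correction, adjusted p = 0.225). Of genes known for this line, VIM was at 66719 ± 9989 normalized counts in Ctrl and 51194 ± 6595 with NE, and the epithelial genes EPCAM and NKX2-1 had means under 3. The keratins KRT8 and KRT18 were called lower (log2 -1.06 and -1.62). After the GC correction they were at -0.59 and -1.15 and both passed the test, but KRT8 was under the fold criterion. The part of these markers in the changes above was not tested.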

How the data were processed

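RNA-seq of NCI-H1299 cells was taken from 1 deposited table with 6 columns of samples. Per the labels and the methods, the authors used HISAT2 2.0.5 against hg38 and then featureCounts 1.5.0-p3 to obtain gene counts. The deposited signal, which the methods call FPKM, is counts divided by 1 size factor per library, between 0.955 and 1.09, and 100% of the values came out as whole reads within 0.01 once this factor was removed. Reads carry no molecular identifiers, so intervals on reads cover counting error only.

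Groups were taken from the sample labels. The deposited values were compared in R 4.3.3 with limma 3.58.1 (lmFit, eBayes with trend) on log2(value + 1), with Benjamini-Hochberg adjustment. Alternatives were pseudocounts of 0.1 and 5, other filters, quantile and TMM scaling, a replicate block, each library left out, and edgeR 4.0.16 and DESeq2 1.42.0 on recovered reads. For the GC correction a natural spline (5 degrees of freedom) was fitted in each library and subtracted, and its repeat with each library left out was chosen after seeing the data. GC content and lengths came from GENCODE v44 for 25813 of the 26025 genes, by identifier. In a simulation 200 genes were shifted by 1.5 in log2 units, 195 of which were among the 15013 genes tested. There limma recovered 95.9% of these 195 and called 3 unchanged genes. The simulated counts held no GC trend and no library that stood apart, so these rates need not hold for the real data.

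The 10 genes and all lists were chosen with earlier results of these data known, so their counts are descriptions. Named were the 10 genes, of each list the called genes, up to 4 per direction, and its most abundant gene, and the 3 nearest profiles of each called gene among the 10. Other genes were named after their values were seen. Promoters came from the RefSeq table for GRCh38.p14. Some genes of the lists are not reported here, and the counts leave them out.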

Additional observations from a re-analysis of the deposited data

How the results depend on the processing

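VEGFA, ANGPTL4 and THBS1 kept their direction and passed the test in all 23 alternatives each, and ANGPTL4 met the fold criterion in 15 of them. VEGFB passed in 16, PGF in 15 and ANGPT1 in 15, and the fits where they did not pass used the GC correction. The causes of the changes below were not tested beyond what each setting does by construction.

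Without the fold criterion 3 of the 10 genes were higher and 3 lower, and over all genes 3693 were higher and 3828 lower. With the GC correction 0 of the 10 genes were called lower, with or without the replicate block and without each library, and 1 was called higher. Over all genes the GC correction gave 549 higher and 346 lower, 474 and 316 with the replicate block, and 534, 523 and 654 higher and 293, 293 and 525 lower without Ctrl replicates 1, 2 and 3. Without NE replicates 1, 2 and 3 it gave 392, 405 and 435 higher and 274, 344 and 378 lower. Leaving out each library without the correction gave 815 to 1628 higher and 777 to 1507 lower, and 1 to 2 of the 10 genes lower. The most calls came without Ctrl replicate 3, where VEGFB joined ANGPTL4. The replicate block alone gave 1049 higher and 924 lower genes and the same numbers of the 10 genes as without it. Libraries of the same number correlated at -0.163, 0.080 and -0.151 in their deviations from the group means, so that the numbers gave no sign of pairing. The difference of the VEGFA to THBS1 log2 ratio was 1.175 with the GC correction, and 0.333 to 0.785 without each library.

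Signs changed where the value was near 0. Over the fits that left out a library VEGFC ranged from -0.021, without Ctrl replicate 1, to 0.112, and KDR from -0.693 to 0.159, without NE replicate 2. ANGPT1 was at -0.025 with the GC correction without NE replicate 1, and KDR at 0.065 with it without NE replicate 2. With no filter on low values the median log2 fold change of all genes was 0.12. Low counts left KDR, FLT1 and ANGPT2 undecided.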
